A study of Mus musculus with 20 samples.

Results

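Testis RNA from vincristine-treated mice carrying a low burden of human leukaemia (group Low-VCR, 4 libraries) was compared with testis RNA from mice given vincristine and no leukaemia (group VCR, 4 libraries). These 8 of the 20 libraries of the series were chosen by their group labels, not by any measured value. All mice were male NOD scid gamma (NSG) mice, a strain whose mutations remove mature lymphocytes and natural killer cells so that human cells can grow. The labels give each an age of 6 weeks. With vincristine from day 69 after the model was set up, this cannot be the age of the treated mice at collection. The age at collection was not given in the labels used here. Low-VCR mice had received 400000 patient-derived cells of B-cell acute lymphoblastic leukaemia (B-ALL) by tail vein and were graded low by leukaemic infiltration of the peripheral blood, so the grade does not describe leukaemic cells in the testis. Both groups received vincristine sulfate at 0.5 mg/kg into the peritoneum, 1 dose a week for 3 weeks, from day 69 after the model was set up. The remaining libraries were a normal control group (NC), a leukaemia group without drug (ALL) and a vincristine group with high infiltration (High-VCR), with 4 libraries each. The comparison asks what a low leukaemic burden adds to, or takes from, the state of the vincristine-treated testis.

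Vincristine binds tubulin, blocks microtubule assembly and arrests dividing cells in mitosis. In the testis, spermatogonia divide and enter meiosis as spermatocytes, and the haploid round spermatids that follow build an acrosome and a flagellum, replace histones with transition proteins and then protamines, and are shed as sperm. Sertoli cells carry the germ cells, Leydig cells between the tubules make testosterone, and resident macrophages lie beside them. In whole-testis RNA, fewer cells of a type and less RNA per cell cannot be told apart, and a loss of the abundant germ cell RNA raises the share of every other cell.

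Libraries held 10645937 to 14029430 counts in VCR and 12997219 to 13881840 in Low-VCR. VCR 1 stood apart from every other treated library: on the first principal component of the 12 vincristine-treated libraries, which carried 58.8% of the variance, it lay at -195.4, with the other VCR libraries between -55.9 and 17.3 and the 4 Low-VCR libraries between 44.3 and 73.6. Of 9374 genes averaging at least 100 counts in the untreated libraries, 130 were listed at 0 in VCR 1, 2 to 9 in the other VCR libraries and 0 to 5 in the Low-VCR libraries. The biological coefficient of variation was 46.8% among VCR libraries, 25.6% among Low-VCR libraries and 32.8% among High-VCR libraries, against 13.8% for NC and 9.25% for ALL. The VCR libraries carry the numbers 5 to 8 in their library names, and the Low-VCR libraries carry 27, 31 and a pair above 100. Engraftment and library numbering therefore cannot be told apart, although the labels give all of them 1 batch. All 26 Sertoli and all 14 Leydig cell markers were counted in each of the 20 libraries. At this depth a count above 0 is only a weak check of the tissue label, and it does not test for admixed tissue.

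Of the 31 gene lists examined, the 3 lists of spermatid genes had the highest median differences, 1.66 to 2.33 on the log2 scale. The lists of Leydig cell, macrophage, inflammatory, erythroid (4 genes tested) and matrix genes were among the lowest, with medians from -0.87 to -0.72. Of 16193 genes tested, 513 rose (3.17%) and 411 fell (2.54%) at an adjusted p under 0.05, and 614 of these 924 changed at least 2-fold. The median log2 fold change was 1.72 among the genes that rose and -0.98 among those that fell. VCR 1 held the lowest of the 8 values for 459 of the 513, and the highest for 261 of the 411. For 503 of the 513 the Low-VCR mean lay between the VCR mean and the NC mean, and likewise for 405 of the 411. These genes were picked by the same VCR and Low-VCR values, and the share over all genes tested was not counted. The 2 counts therefore describe the called genes only.

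The calls stand at the edge of the threshold. Of the 924 called genes, 908 share the same adjusted p of 0.0496, and 2016 genes lie under 0.06 and 4726 under 0.1, while 6057 had an unadjusted p under 0.05. A fit of all 20 libraries, which draws its estimate of the spread from the untreated testes too, called 2757 genes higher (16.7%) and 2243 lower (13.6%), 906 of the 924 among them. A fit of the 8 libraries alone called 1 gene, Btbd35f15, and 5045 genes had p under 0.05 before adjustment. The same gene alone passed with DESeq2 size factors, with library size alone, with scaling on Sertoli genes, with no filter on low counts, with at least 1 count-per-million (CPM) in 4 libraries, and with limma voom; DESeq2 itself called 2091 higher and 1359 lower. Without VCR 1, 990 genes rose and 108 fell, without VCR 3, 1769 rose and 2255 fell, and without Low-VCR 4, 762 rose and 302 fell. Leaving out VCR 2, VCR 4 or Low-VCR 1, 2 or 3 left at most 2 genes in either direction.

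The plot of calls under each setting shows this spread of counts.

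**Figure D1:**
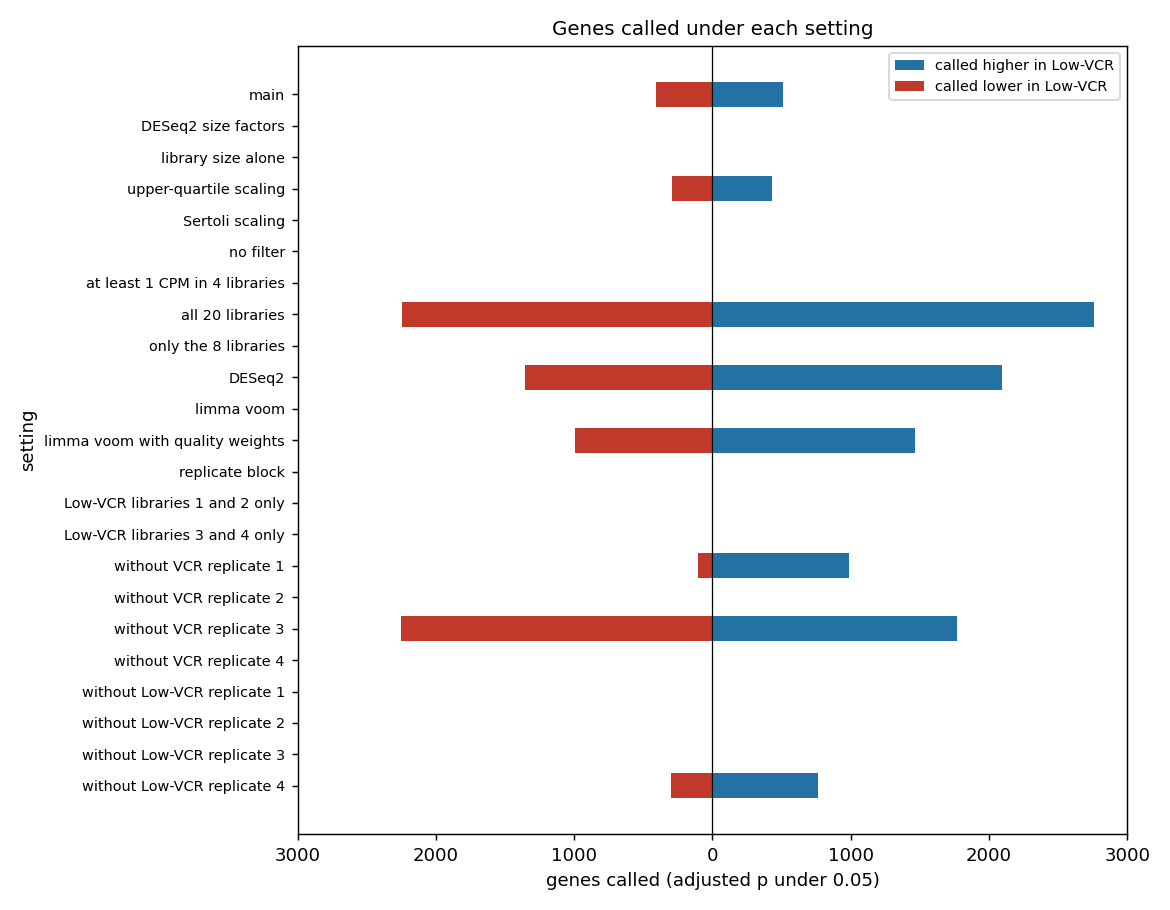
Genes called higher (blue, to the right) or lower (red, to the left) in Low-VCR than VCR at an adjusted p under 0.05, for the 12-library fit (main) and each other setting; the x axis counts genes. The 12-library fit called 513 and 411, the 20-library fit 2757 and 2243, and many settings called 1 gene or none.

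Because calls hang on that threshold, the members are also described by whether all 4 Low-VCR values lay above, or all below, all 4 VCR values, called no overlap here. Over all genes tested 2183 (13.5%) had no overlap with Low-VCR higher and 1899 (11.7%) with Low-VCR lower. Counts of list members that rose or fell in the 12-library fit stand against 3.17% and 2.54% of all genes tested. Levels below are CPM scaled by TMM over all 20 libraries, and log2 fold changes are Low-VCR minus VCR with their standard error (SE). Over all genes tested the median was -0.08, and it moved by 0.39 under scaling on Sertoli genes, by -0.15 under upper-quartile scaling and by -0.12 with library size alone. The plot of list members gives every member of the 31 gene lists.

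**Figure D2:**
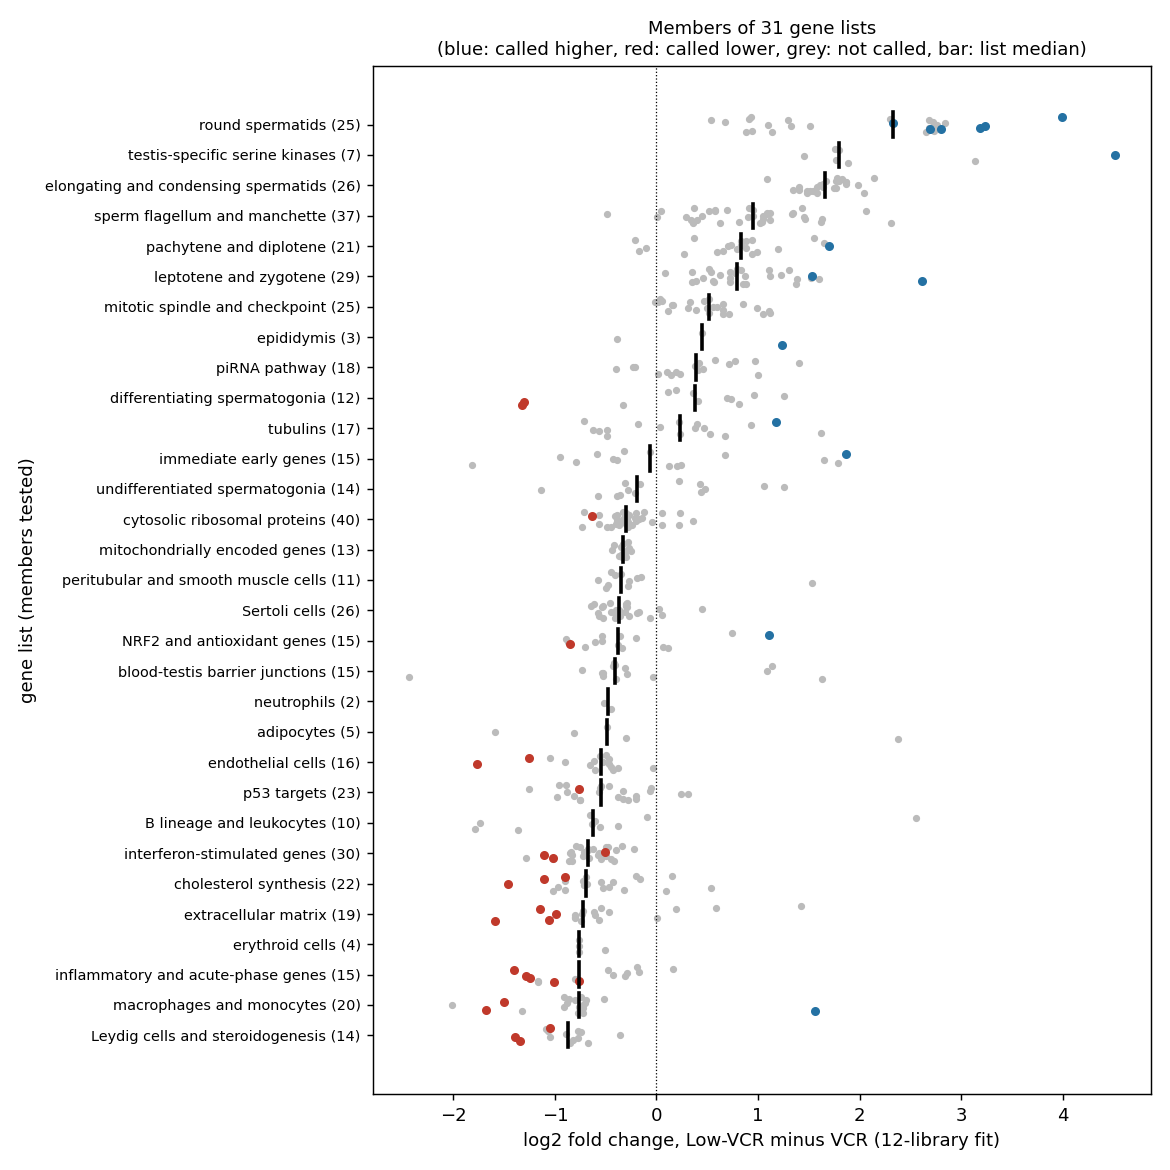
Log2 fold change of each tested member of 31 gene lists (points; blue called higher, red called lower, grey not called) with the list median (black bar), lists ordered by median; the x axis is the fold change from the 12-library fit. Round spermatid genes had the highest median, 2.33, and Leydig cell genes the lowest, -0.87; under scaling on Sertoli genes the medians of undifferentiated spermatogonia, Sertoli cells, peritubular cells, barrier junctions, NRF2 genes, immediate early genes, mitochondrial transcripts and ribosomal proteins were above 0.

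Tssk4 and Ccdc159 are the genes named in the title of the series. Tssk4 encodes a serine/threonine kinase made only in the testis after meiosis. Its level was 0, 5.54, 7.999 and 3.50 CPM in VCR 1 to 4 and 55.0, 23.9, 63.2 and 9.29 CPM in Low-VCR 1 to 4. Every Low-VCR value was above every VCR value, and Low-VCR 1 and 3 were far above Low-VCR 4. The log2 fold change was 3.14 (SE 0.91) and the adjusted p was 0.0543, which did not pass; over the alternatives it ran from 0.00541 to 0.30, with log2 fold changes of 2.75 to 4.13. Untreated testes held 108 CPM ± 9.08 (SD, n = 4) in NC and 87.1 CPM in ALL, and High-VCR libraries held 3.37 to 10.6 CPM, overlapping VCR.

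Ccdc159 encodes a coiled-coil protein. It measured 0, 0.0759, 14.03 and 5.63 CPM in VCR and 26.6, 38.5, 17.6 and 25.5 CPM in Low-VCR, again without overlap. The log2 fold change was 2.40 (SE 1.09) with an adjusted p of 0.133, and the adjusted p over the alternatives ran from 0.0374 to 0.403. The order within Low-VCR differed from that of Tssk4, since Low-VCR 2 was the highest and Low-VCR 3 the lowest. NC held 46.7 CPM ± 3.82 (SD, n = 4) and High-VCR 5.26 to 24.8 CPM.

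The promoters of these genes and of the spermatid genes described next are shown because their transcripts were higher together in Low-VCR. They are RefSeq sequences of build GRCm38.p6, from 250 bases before to 50 bases after the annotated start, matched by gene symbol; the count table itself was made on another build. They were searched on both strands for the cyclic AMP response element TGACGTCA, the site of the spermatid activator CREM, and for GTTGCCA, part of the X-box bound by RFX factors, and capitals mark a match.
Tssk4 (chr14:55649934-55650233, plus strand): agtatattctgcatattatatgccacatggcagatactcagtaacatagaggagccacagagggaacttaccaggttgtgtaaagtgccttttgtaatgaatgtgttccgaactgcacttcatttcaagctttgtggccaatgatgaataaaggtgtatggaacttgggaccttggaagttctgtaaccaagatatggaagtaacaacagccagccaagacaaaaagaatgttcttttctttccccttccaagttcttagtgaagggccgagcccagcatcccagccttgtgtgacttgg
Ccdc159 (chr9:21927221-21927520, plus strand): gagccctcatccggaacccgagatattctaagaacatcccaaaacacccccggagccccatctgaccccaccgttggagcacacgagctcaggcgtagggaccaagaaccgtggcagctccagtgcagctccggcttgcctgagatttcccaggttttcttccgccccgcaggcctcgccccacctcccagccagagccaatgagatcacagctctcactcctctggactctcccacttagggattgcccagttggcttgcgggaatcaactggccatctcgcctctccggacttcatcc
Spam1 (chr6:24790938-24791237, plus strand): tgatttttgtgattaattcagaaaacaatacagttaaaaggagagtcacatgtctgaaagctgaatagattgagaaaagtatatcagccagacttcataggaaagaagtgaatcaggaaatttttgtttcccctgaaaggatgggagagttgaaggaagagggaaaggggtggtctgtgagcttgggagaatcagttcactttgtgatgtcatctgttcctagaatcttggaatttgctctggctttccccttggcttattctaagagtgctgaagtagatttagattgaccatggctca
Lyzl4 (chr9:121642072-121642371, minus strand): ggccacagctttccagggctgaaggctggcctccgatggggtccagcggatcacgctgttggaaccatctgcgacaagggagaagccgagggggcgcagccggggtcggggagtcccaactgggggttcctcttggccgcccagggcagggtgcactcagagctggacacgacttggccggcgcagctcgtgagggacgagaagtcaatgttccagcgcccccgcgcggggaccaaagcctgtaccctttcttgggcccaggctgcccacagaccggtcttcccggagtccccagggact
Ropn1 (chr16:34650961-34651260, plus strand): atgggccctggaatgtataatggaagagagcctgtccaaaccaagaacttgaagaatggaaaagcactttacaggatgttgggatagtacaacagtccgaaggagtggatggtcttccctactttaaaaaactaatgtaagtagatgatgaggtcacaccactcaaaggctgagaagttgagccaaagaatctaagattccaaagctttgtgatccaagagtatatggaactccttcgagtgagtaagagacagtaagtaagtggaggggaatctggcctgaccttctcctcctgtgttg
Izumo1 (chr7:45621561-45621860, plus strand): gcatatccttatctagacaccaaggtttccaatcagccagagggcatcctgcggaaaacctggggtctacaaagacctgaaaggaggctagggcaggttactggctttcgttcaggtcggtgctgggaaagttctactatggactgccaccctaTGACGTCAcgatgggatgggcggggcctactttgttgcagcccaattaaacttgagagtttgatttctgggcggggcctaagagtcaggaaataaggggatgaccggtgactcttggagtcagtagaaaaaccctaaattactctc
Tcp11 (chr17:28080590-28080889, minus strand): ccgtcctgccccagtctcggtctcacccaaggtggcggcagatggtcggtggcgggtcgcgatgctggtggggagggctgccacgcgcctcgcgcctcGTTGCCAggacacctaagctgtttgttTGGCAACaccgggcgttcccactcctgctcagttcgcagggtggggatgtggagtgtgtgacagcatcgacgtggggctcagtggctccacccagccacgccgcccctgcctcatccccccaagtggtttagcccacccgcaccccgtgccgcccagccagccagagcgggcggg
Neither motif is in the windows of Tssk4, Ccdc159, Spam1, Lyzl4 (the first of its 3 listed promoters) or Ropn1. Izumo1 and Tcp11 were added after the search because they hold one: Izumo1 is the only 1 of 22 matched round spermatid genes with TGACGTCA, and Tcp11 and Actl7b are the 2 of 21 matched elongating spermatid genes with GTTGCCA. All shares here use 1 promoter per gene, the first listed, out of 32851 promoters for 27025 symbols. Over all 27025 symbols, 1.88% held the first motif and 4.46% the second. Over the 12561 matched genes among those tested 2.9% and 4.3% did. Among matched genes that rose, 3.6% held TGACGTCA and 7.46% GTTGCCA, and among those that fell 2.2% and 1.57%; these shares are descriptions without a test.

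Round spermatid genes had the highest median of all lists. All 25 members had a log2 fold change above 0, with a median of 2.33 and a range of 0.54 to 4.00, and 6 rose: Spam1, Lyzl4, Izumo1, Catsper1, Catsper3 and Sun5. No overlap was seen for 14 of the 25 (56%), against 13.5% of all genes tested. Without VCR 1, the lowest library for all 25, the median was 2.05 and 12 members passed. Their summed level ran from 110 to 1727 CPM in VCR and from 1845 to 2874 CPM in Low-VCR. It was 724 to 2256 CPM in High-VCR and 5216 to 5562 CPM in NC.

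Spam1 encodes the sperm surface hyaluronidase PH-20, which helps sperm pass the cumulus. It measured 0.0762, 0.911, 0.590 and 1.29 CPM in VCR and 21.5, 5.14, 17.8 and 2.11 CPM in Low-VCR, with 31.4 CPM ± 3.32 (SD, n = 4) in NC. Its log2 fold change was 4.00 (SE 0.84), adjusted p 0.0496. Low-VCR 1 and 3 came within reach of NC, whereas Low-VCR 4 stood just above the highest VCR library.

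Izumo1 encodes the sperm protein that binds the egg receptor JUNO. It rose from 0.686, 8.89, 7.34 and 9.66 CPM in VCR to 70.7, 26.99, 75.8 and 13.4 CPM in Low-VCR, a log2 fold change of 2.81 (SE 0.73). Catsper1 and Catsper3 encode pore subunits of the sperm calcium channel. Catsper1 rose from 4.57, 19.6, 19.2 and 20.5 CPM to 112, 48.1, 132 and 29.9 CPM, by 2.33 (SE 0.54). Catsper3 rose by 3.19 (SE 0.73), but its Low-VCR 4 value of 5.81 CPM lay below the VCR 2 value of 6.23 CPM. The same order, Low-VCR 1 and 3 above Low-VCR 2 and 4, recurred across these genes.

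Lyzl4, a lysozyme-like gene of the acrosome, measured 0.152, 1.22, 1.77 and 1.52 CPM in VCR and 10.8, 5.37, 11.7 and 2.90 CPM in Low-VCR, a rise of 2.7 (SE 0.60). Sun5, which anchors the sperm head to the tail, rose by 3.23 (SE 0.83). The acrosome genes Acrv1, Spaca1, Spaca3, Spaca4, Spaca7 and Hyal5 had log2 fold changes of 2.30 to 2.76 and did not pass. The smallest differences on the list were those of Tex101, at 0.54, Pdha2, a testis form of a pyruvate dehydrogenase subunit, at 0.68, and the transcription factor Rfx2, at 0.88, and none of these passed. Crem, the activator of spermatid genes, had a log2 fold change of 1.13 (SE 0.69) with no overlap and did not pass.

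The testis-specific serine kinases phosphorylate proteins of the forming sperm head and tail, and 7 genes of the family and its substrate were tested. All 7 had no overlap, under each of 5 scalings, and 1 rose. Tssk5 rose from 0, 1.29, 0.393 and 1.22 CPM in VCR to 30.6, 5.60, 28.8 and 1.81 CPM in Low-VCR, by 4.52 (SE 1.07). NC held 49.3 CPM ± 5.29 (SD, n = 4) and High-VCR 0.335 to 2.78 CPM. The list median was 1.80, and 1.42 without VCR 1, when 5 of the 7 passed. Tssk1, Tssk2, Tssk3, Tssk6 and the substrate Tsks lay between 1.45 and 1.88, and in these the 4 Low-VCR libraries were closer to one another: Tssk1 measured 297, 240, 306 and 201 CPM against 4.65, 63.9, 126 and 84.7 CPM in VCR.

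**Figure D3:**
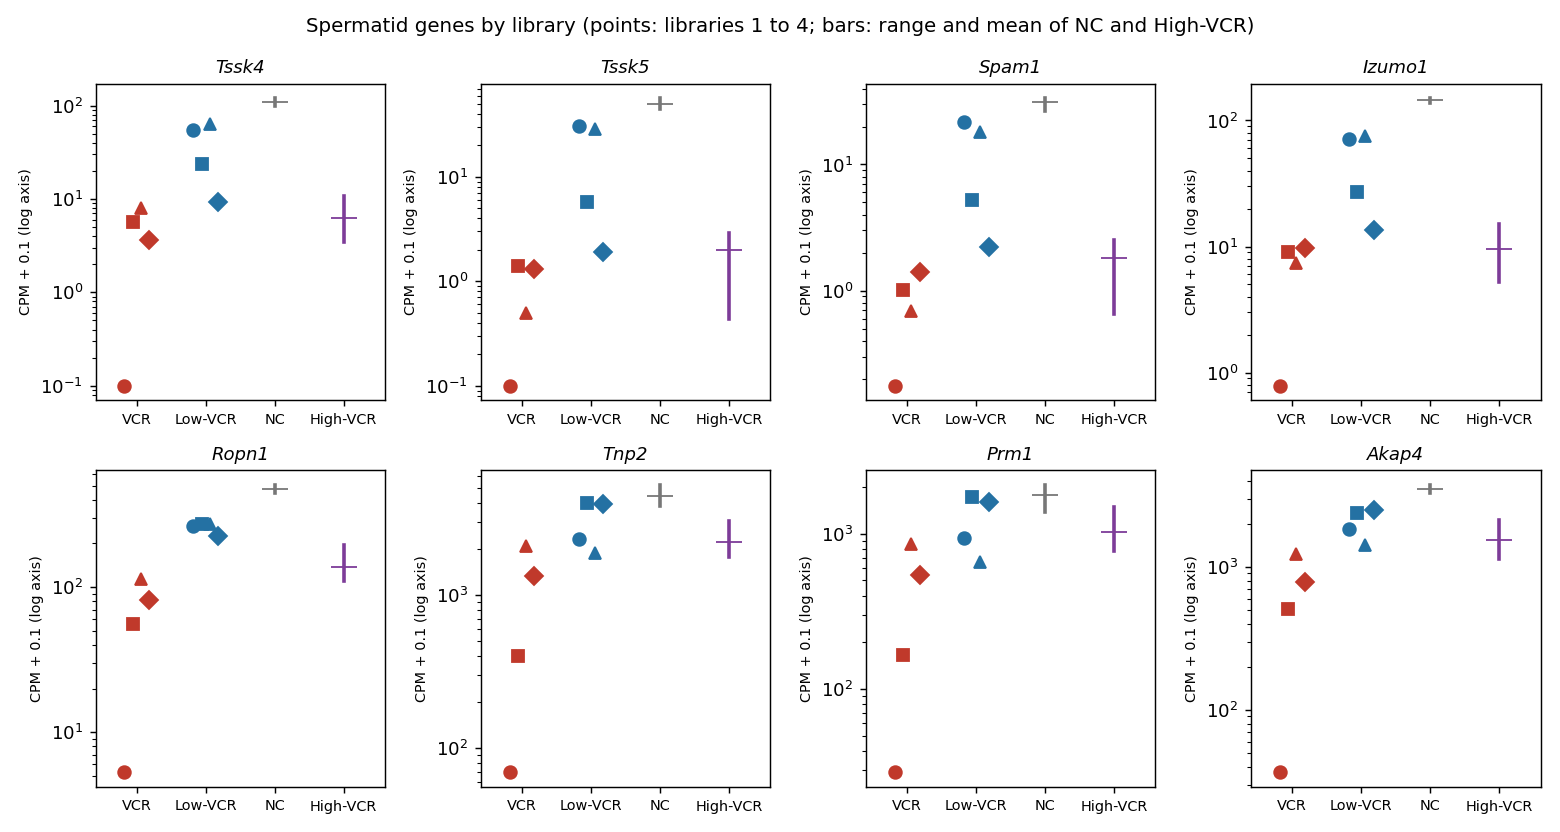
CPM plus 0.1 on a log axis for 8 spermatid genes in each VCR (red) and Low-VCR (blue) library, circle, square, triangle and diamond for libraries 1 to 4, with the range and mean of NC (grey) and High-VCR (purple). In Tssk4, Tssk5, Spam1 and Izumo1 Low-VCR 1 and 3 are the highest, and in Tnp2, Prm1 and Akap4 Low-VCR 2 and 4 are; VCR 1 is the lowest in all 8.

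Genes of elongating and condensing spermatids were higher in Low-VCR by a similar amount in nearly every member, without passing. All 26 had a log2 fold change between 1.09 and 2.15, median 1.66. No overlap was seen for 21 of 26 (80.8%), against 13.5% of all genes tested. The 80.8% was the same under all 5 scalings. None passed in the 12-library fit, against 21 of 26 in the 20-library fit and 14 without VCR 1, when the median was 1.30. Their summed level was 489.9 to 14480 CPM in VCR and 17340 to 27800 CPM in Low-VCR. High-VCR held 11340 to 21450 CPM, overlapping VCR and Low-VCR, and NC held 33420 to 39300 CPM.

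Ropn1, ropporin, which lies in the fibrous sheath of sperm, had the smallest p of the list. It measured 5.18, 55.4, 114 and 82.1 CPM in VCR and 262, 274, 272 and 224 CPM in Low-VCR, a log2 fold change of 1.99 (SE 0.63) with an adjusted p of 0.0618. The 4 Low-VCR values lay close together, at about the middle of the gap to the NC mean of 477 CPM.

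Transition protein and protamine genes had another order within Low-VCR. Tnp2 measured 69.6, 403.5, 2094 and 1329 CPM in VCR and 2334, 4021, 1885 and 3931 CPM in Low-VCR, with a log2 fold change of 1.61 (SE 0.75) that did not pass. Prm1 measured 28.8, 164, 861 and 544 CPM in VCR and 933, 1735, 657 and 1598 CPM in Low-VCR, 1.59 (SE 0.76). VCR 3 exceeded Low-VCR 3 for both, so the groups overlapped. In Low-VCR 2 and 4 both genes lay near the NC means of 4439 and 1775 CPM.

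Across the 26 elongating spermatid genes, Low-VCR 2 and 4 were both above Low-VCR 1 and 3 for 17, and the opposite held for 3. Across the 25 round spermatid genes, Low-VCR 1 and 3 were both above 2 and 4 for 18, and the opposite held for 1. The pair of libraries with the higher acrosome and channel genes was thus the pair with the lower protamine genes. This split was noticed in these libraries and was not tested. Low-VCR 1 and 2 carry library numbers under 100 and Low-VCR 3 and 4 numbers over 100. The labels do not say what these numbers stand for, and a link between them and the split was not tested.

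Genes of the flagellum and manchette, which build the axoneme and shape the head, were higher by less. Of 37 tested, 36 had a log2 fold change above 0, the median was 0.95 and none passed. No overlap was seen for 13 (35.1%), against 13.5% of all genes tested. Without VCR 1 the median was 0.60 and 4 passed. Cfap157 had the smallest p: 9.52, 25.6, 41.4 and 33.8 CPM in VCR against 91.4, 64.2, 101 and 51.8 CPM in Low-VCR, 1.46 (SE 0.41), adjusted p 0.0522. The tektin Tekt2 was at 2.31 and Tekt4 at 2.07, both without overlap, whereas the dynein heavy chains Dnah1, Dnah2, Dnah8 and Dnah17 lay between 0.00 and 0.36. For these 4 dynein genes VCR 3 and VCR 4 were above Low-VCR 1 to 3. Rsph4a, a radial spoke protein, was the member below 0, at -0.48.

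**Figure D4:**
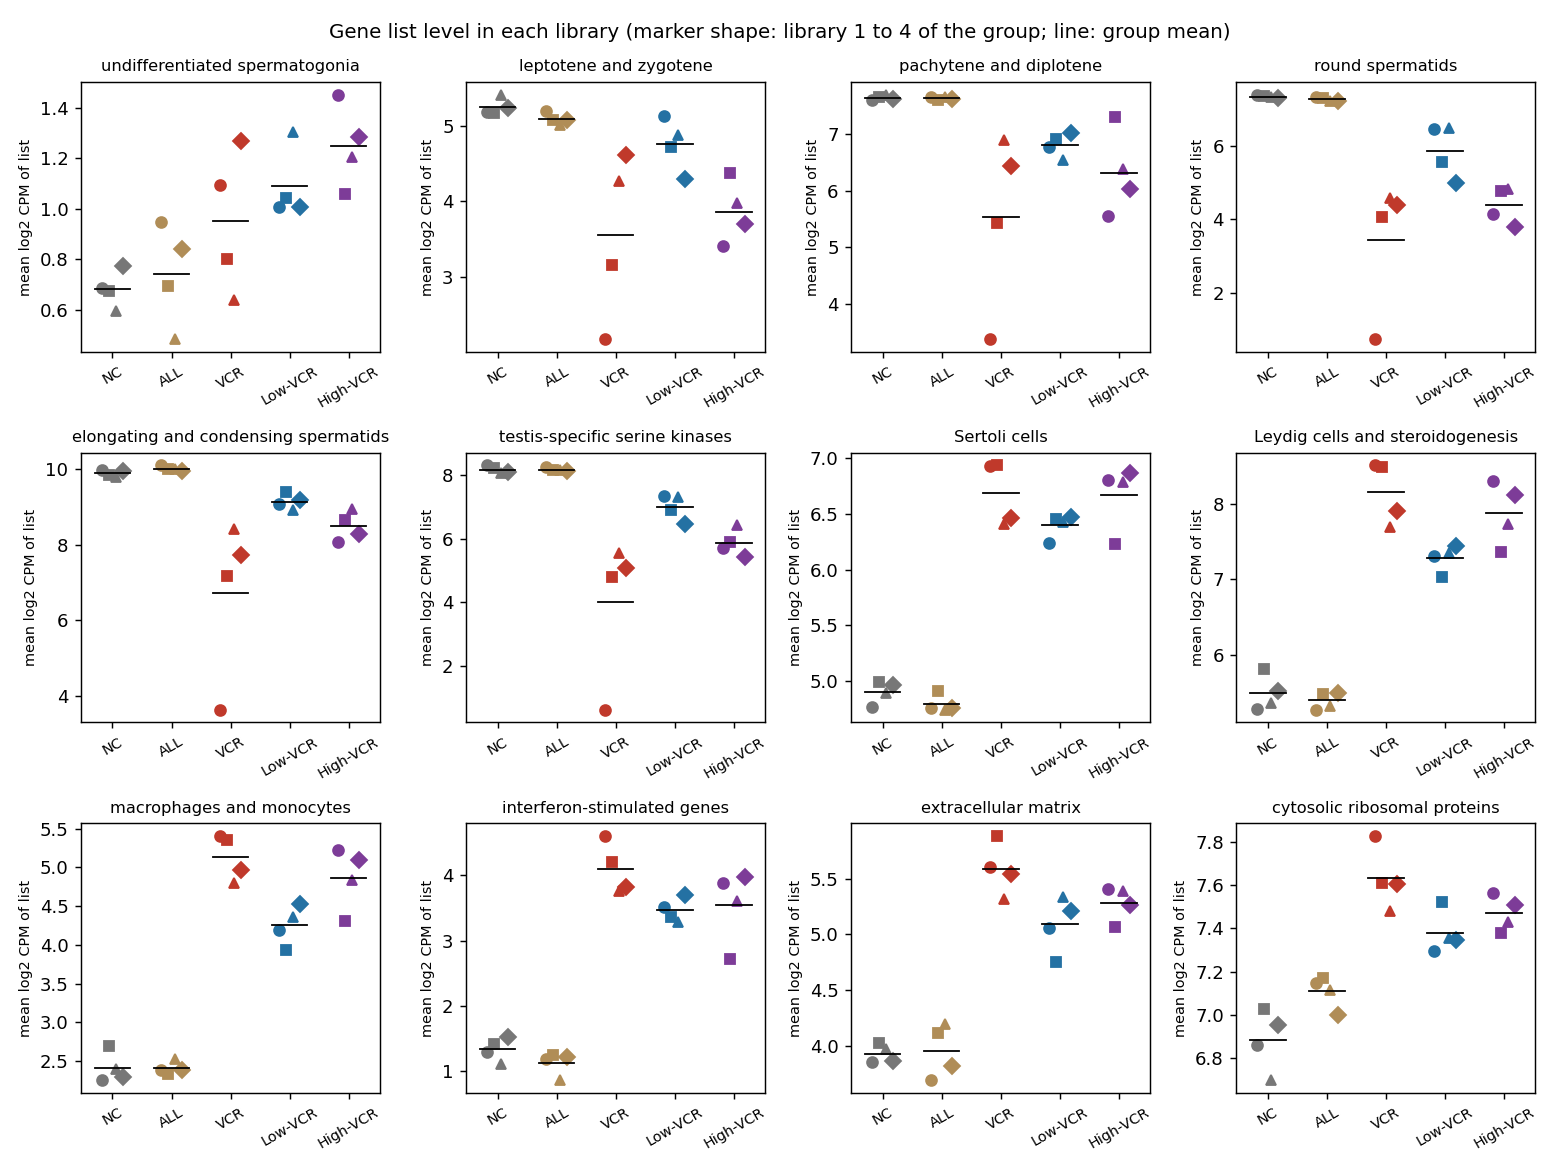
Mean log2 CPM of 12 gene lists in each library, grouped as NC, ALL, VCR, Low-VCR and High-VCR; marker shapes stand for libraries 1 to 4 and the line is the group mean. The round spermatid, elongating spermatid and kinase lists are higher in all 4 Low-VCR than in all 4 VCR libraries and below the untreated ones, and the Leydig cell, macrophage and interferon lists are lower in all 4 Low-VCR than in all 4 VCR libraries and above the untreated ones.

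Meiotic genes differed less between the groups, and most overlapped. Of 29 leptotene and zygotene genes all had a log2 fold change above 0, with a median of 0.79. Among them 2 rose, against 3.17% of all genes tested. No overlap was seen for 3 (10.3%), a share near that of all genes tested. Rec8, the meiotic cohesin kleisin, rose from 3.43, 6.84, 7.34 and 16.9 CPM to 77.5, 28.4, 94.7 and 13.8 CPM, by 2.62 (SE 0.63), although Low-VCR 4 lay below VCR 4. Syce2, a central element protein of the synaptonemal complex, rose from 9.68, 27.6, 43.1 and 33.5 CPM to 93.9, 83.3, 90.7 and 65.8 CPM, by 1.53 (SE 0.36). The axial element gene Sycp3 was at 0.72 (SE 0.58) and its Low-VCR values of 66.6 to 106 CPM overlapped VCR 3 and 4.

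Of 21 pachytene and diplotene genes, 18 lay above 0, the median was 0.84 and 1 rose, against 3.17% of all genes tested. No overlap was seen for 3 (14.3%), near the 13.5% of all genes tested. Cdc25c, a phosphatase that activates the cyclin B kinase, rose from 2.90, 4.25, 8.72 and 10.1 CPM to 27.3, 17.6, 27.2 and 14.2 CPM, by 1.70 (SE 0.39). Piwil1, the pachytene piRNA-binding protein, was at -0.11 (SE 0.87), with 24.3 to 704 CPM in VCR and 132 to 534 CPM in Low-VCR. Of 18 genes of the piRNA pathway, which silences transposons, none passed, the median was 0.39 and 1 had no overlap. That gene was Gtsf1, a cofactor of Piwi proteins, at 1.40 (SE 0.63), adjusted p 0.129. Without VCR 1 the 3 medians were 0.61, 0.47 and 0.13.

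Spermatogonial genes showed no common direction. Of 14 genes of undifferentiated spermatogonia, which include the stem cells, none passed or was free of overlap, and the median was -0.19; under scaling on Sertoli genes it was 0.23 and without VCR 1 it was 0.006. Nanos2, Eomes and Pax7 were too low to be tested. Zbtb16, a factor that maintains stem cells, measured 9.60, 6.84, 6.95 and 5.48 CPM in VCR and 6.21, 4.98, 7.87 and 5.08 CPM in Low-VCR. Tspan8 had the smallest p, at -1.14 (SE 0.32), adjusted p 0.0522.

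Of 12 genes of differentiating spermatogonia, 2 fell and 9 lay above 0. Kit, the receptor for stem cell factor on differentiating spermatogonia and also on Leydig cells, fell from 108, 106, 84.3 and 84.7 CPM in VCR to 49.1, 26.4, 45.8 and 33.7 CPM in Low-VCR, by 1.32 on the log2 scale (SE 0.27). NC held 11.4 CPM ± 1.09 (SD, n = 4). Ccnd2, cyclin D2, fell from 4.03 to 9.37 CPM in VCR to 1.64 to 3.14 CPM in Low-VCR, by 1.30 (SE 0.28), and NC held 0.848 CPM. Both were lowest in untreated testes, as the Leydig cell genes below were. Stra8, the gatekeeper of meiotic entry, was at 0.73 (SE 0.32) and did not pass.

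Tubulin is the target of vincristine, and its isotypes split by direction. Of 17 tested, 1 rose, against 3.17% of all genes tested, and the median was 0.23. No overlap was seen for 4 (23.5%) with Low-VCR higher and 1 (5.88%) with Low-VCR lower. Over all genes tested these shares were 13.5% and 11.7%. Tuba4a rose from 38.4, 74.1, 99.3 and 68.2 CPM to 143, 180, 152 and 166 CPM, by 1.18 (SE 0.26), and NC held 242 CPM ± 20.9 (SD, n = 4). Tuba8 was at 1.62 and Tubb4b at 0.67, both higher in NC than in VCR and Low-VCR. Tuba1b was at -0.63 with no overlap, and Tuba1a, Tubb3 and Tubb5 lay between -0.56 and -0.48 with overlap; NC was below both groups for all 4. None of these 6 passed.

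Of 25 mitotic spindle and checkpoint genes, 24 lay above 0, the median was 0.51 and none passed. No overlap with Low-VCR higher was seen for 7 (28%), against 13.5% of all genes tested. Ccnb1, cyclin B1, measured 16.7, 36.1, 52.5 and 47.5 CPM in VCR and 102.3, 63.9, 86.1 and 67.9 CPM in Low-VCR, 1.05 (SE 0.35), adjusted p 0.0686. Cdk1 was at 0.02 (SE 0.20). For 23 of the 25 VCR 1 was the lowest of the 8 libraries, and without it the median was 0.24.

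Leydig cell genes had the lowest median of the 31 lists. All 14 were below 0, with a range of -1.39 to -0.36 and a median of -0.87, 3 fell and 6 (42.9%) had no overlap, against 11.7% of all genes. Under scaling on Sertoli genes the median was -0.39 and 4 (28.6%) had no overlap, against 2.6% of all genes under that scaling. Without VCR 1 the median was -0.72. Their summed level was 7725 to 17070 CPM in VCR and 5398 to 6884 CPM in Low-VCR. It was 7098 to 14630 CPM in High-VCR and 1433 to 2219 CPM in NC.

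Cyp11a1, the side-chain cleavage enzyme that starts steroid synthesis, fell from 3974, 3159, 1545 and 2278 CPM to 1114, 829, 1226 and 1062 CPM, by 1.39 on the log2 scale (SE 0.34). Hsd3b1, which makes progesterone from pregnenolone, fell from 619, 504, 273 and 441 CPM to 157, 190, 181 and 207 CPM, by 1.34 (SE 0.29). Nr5a1, the steroidogenic factor SF-1, fell from 141, 146, 77.6 and 98.7 CPM to 54.0, 44.5, 70.3 and 56.5 CPM, by 1.05 (SE 0.23). In all 3 genes VCR 3 was the lowest VCR library and still above every Low-VCR library, and every Low-VCR value was above the NC mean, 230, 31.3 and 15.8 CPM. Star, the cholesterol carrier, and Insl3 were at -0.67 and -0.82 and did not pass.

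Cholesterol synthesis genes, which feed steroid production, had a median of -0.69 over 22 tested, and 3 fell, against 2.54% of all genes tested. No overlap with Low-VCR lower was seen for 5 (22.7%), against 11.7% of all genes. Under scaling on Sertoli genes that count was 0, against 2.6% of all genes. With Low-VCR higher it was then 2 (9.09%), against 17.2% of all genes. Sc5d fell from 38.6, 38.6, 16.3 and 18.6 CPM to 14.7, 7.97, 8.20 and 10.0 CPM, by 1.46 (SE 0.38). Hsd17b7 fell by 1.10 (SE 0.28) and Mvk by 0.90 (SE 0.24). Sqle, squalene epoxidase, was at -0.17 and did not pass. Without VCR 1 none of the 22 passed and the median was -0.57.

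Sertoli cell genes overlapped between the groups. Of 26, none passed and 3 (11.5%) had no overlap with Low-VCR lower, against 11.7% of all genes. The median was -0.37, or 0.06 under scaling on their own sum. That scaling makes the sum equal in all libraries, so the second value is no test of these genes. Trf, transferrin, had the smallest p: 93.0, 91.1, 59.7 and 76.5 CPM in VCR against 57.5, 45.3, 53.5 and 55.6 CPM in Low-VCR, -0.61 (SE 0.20), adjusted p 0.0640. Rhox5, an androgen-dependent Sertoli gene, went the other way at 0.45 (SE 0.17) and did not pass. Their summed level was 10310 to 15510 CPM in VCR, 8044 to 10440 CPM in Low-VCR and 2690 to 3018 CPM in NC.

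Of 15 junction genes of the blood-testis barrier none passed, and the median was -0.41, or 0.03 under scaling on Sertoli genes. Cldn3, a claudin of newly formed barrier junctions, had the smallest p, at 1.63 (SE 0.50), with 4.95 to 38.4 CPM in VCR, 53.3 to 81.6 CPM in Low-VCR and 99.3 CPM in NC. Jam2, Jam3 and Ctnnb1 lay between -0.73 and -0.39 with Low-VCR lower and no overlap. Of 11 peritubular and smooth muscle genes none passed, and the median was -0.35, or 0.09 under scaling on Sertoli genes. Actg2 was the exception in direction at 1.53 (SE 0.46), and was highest in NC at 202 CPM.

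Endothelial genes were all below 0 (16 of 16, median -0.54). Among them 2 fell, against 2.54% of all genes tested, and 4 (25%) had no overlap, against 11.7% of all genes. Kdr, the main receptor for vascular endothelial growth factor, fell from 63.3, 51.0, 34.2 and 33.3 CPM to 19.7, 15.7, 17.4 and 24.2 CPM, by 1.26 (SE 0.25). Plvap, of the diaphragms of fenestrated vessels, fell by 1.77 (SE 0.38). Without VCR 1 the same number passed, and the median was -0.47.

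Extracellular matrix genes had a median of -0.72 over 19 tested. Among them 4 fell and 8 (42.1%) had no overlap with Low-VCR lower, against 11.7% of all genes. Mmp2, a gelatinase, fell from 21.2, 19.1, 12.3 and 15.6 CPM to 4.97, 3.76, 7.28 and 6.75 CPM, by 1.59 (SE 0.26). Col3a1, a fibrillar collagen, fell from 280, 288, 132 and 200 CPM to 105.03, 86.2, 98.01 and 121 CPM, by 1.15 (SE 0.25). The basement membrane collagens Col4a1 and Col4a2 fell by 1.06 and 0.99. For Mmp2, Col4a1 and Col4a2 every High-VCR library, 9.86 to 15.6 CPM for Mmp2, was above every Low-VCR library. Under scaling on Sertoli genes the list median was -0.27 and 4 (21.1%) had no overlap, against 2.6% of all genes.

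**Figure D5:**
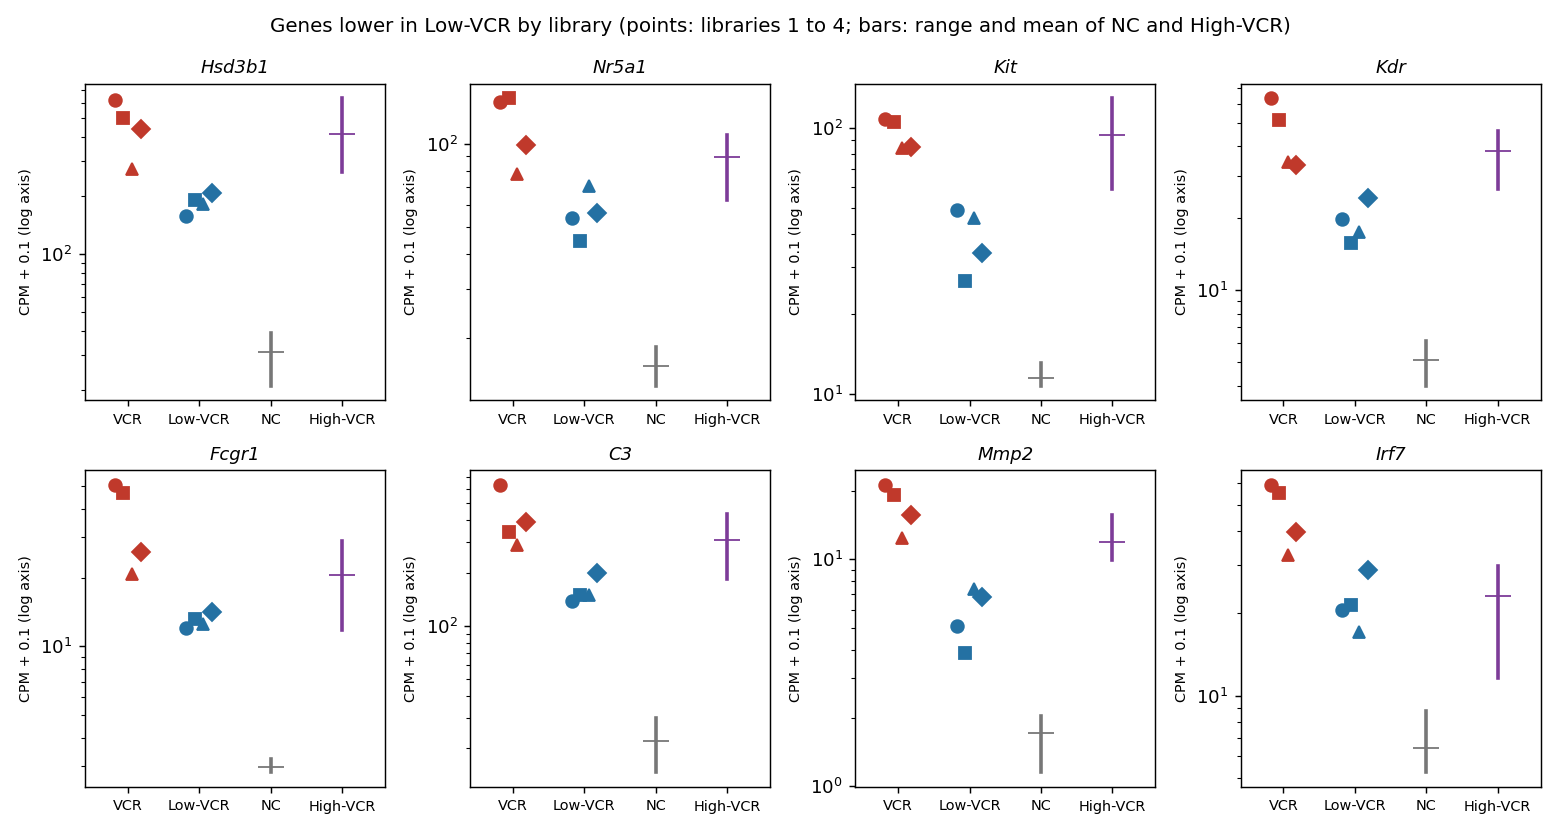
CPM plus 0.1 on a log axis for 8 genes that fell, in each VCR (red) and Low-VCR (blue) library, circle, square, triangle and diamond for libraries 1 to 4, with the range and mean of NC (grey) and High-VCR (purple). All 4 Low-VCR values lie below all 4 VCR values and above the NC mean in every panel; the High-VCR range of Irf7, 11.5 to 29.7 CPM, lies below all 4 VCR values.

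Macrophage and monocyte genes were lower in Low-VCR in 19 of 20, with a median of -0.77. Among them 2 fell, 1 rose, and 12 (60%) had no overlap with Low-VCR lower, against 11.7% of all genes. Under scaling on Sertoli genes the median was -0.33 and 5 (25%) had no overlap, against 2.6% of all genes. Fcgr1, a high-affinity antibody receptor, fell from 50.7, 46.7, 20.7 and 25.8 CPM to 11.9, 13.1, 12.5 and 14.01 CPM, by 1.5 (SE 0.32). Cx3cr1, the fractalkine receptor, fell from 4.41 to 9.80 CPM in VCR to 0.843 to 2.76 CPM in Low-VCR, by 1.68 (SE 0.41). The defining markers Csf1r, Cd68, C1qa and Adgre1 lay between -0.91 and -0.70 and did not pass, and none was at 0. Their summed level was 1042 to 1607 CPM in VCR, 743.6 to 884.4 CPM in Low-VCR and 272.4 to 299.5 CPM in NC. High-VCR held 777.5 to 1439 CPM, overlapping VCR and Low-VCR.

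Aif1 was the macrophage marker that rose, from 8.69, 17.2, 33.1 and 23.4 CPM to 58.7, 72.4, 51.6 and 64.5 CPM, by 1.56 (SE 0.34). Its level was 94.9 CPM ± 8.17 (SD, n = 4) in NC, the group where the summed macrophage markers were low, so it was ordered like the spermatid genes. Cst8 on the epididymis list, Klf4 on the immediate early list and Srxn1 on the NRF2 list rose in the same order, with 12.3 to 36.0 CPM in VCR, 49.1 to 75.4 CPM in Low-VCR and 82.0 CPM in NC for Cst8. The log2 fold changes were 1.24 for Cst8, 1.87 for Klf4 and 1.11 for Srxn1. Klf4, a transcription factor also made in round spermatids, measured 127, 51.9, 140 and 32.9 CPM in Low-VCR, high in the same pair of libraries as the acrosome genes.

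Interferon-stimulated genes, which respond to type I and type II interferons, were below 0 in 30 of 30, with a median of -0.68. Among them 3 fell and 10 (33.3%) had no overlap, against 11.7% of all genes. Their summed level was 647.5 to 1171 CPM in VCR and 455.1 to 594.6 CPM in Low-VCR. High-VCR held 330.1 to 738.2 CPM, overlapping Low-VCR. Irf7, the master regulator of the type I response, fell from 59.0, 54.9, 32.7 and 39.6 CPM to 20.5, 21.5, 17.1 and 28.7 CPM, by 1.10 (SE 0.28). Bst2, tetherin, fell from 201, 136, 101 and 115.6 CPM to 60.0, 73.3, 69.9 and 75.1 CPM, by 1.02 (SE 0.24). Oas3 fell by 0.50 (SE 0.13). VCR 1 was the highest of the 8 libraries for 28 of the 30, and without it the median was -0.45 and none passed. Under scaling on Sertoli genes the median was -0.21 and 2 (6.67%) had no overlap, against 2.6% of all genes under that scaling.

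Of 15 inflammatory and acute-phase genes tested, 14 lay below 0, the median was -0.76 and 5 fell. No overlap with Low-VCR lower was seen for 6 (40%), against 11.7% of all genes. C3, the central complement protein, fell from 635, 343, 289 and 389 CPM to 138, 149, 150 and 199 CPM, by 1.40 (SE 0.30), against 21.9 CPM ± 8.44 (SD, n = 4) in NC. Serpina3n, an acute-phase protease inhibitor, fell from 97.4, 76.9, 47.5 and 56.9 CPM to 28.4, 24.1, 30.8 and 32.3 CPM, by 1.29 (SE 0.28). Socs3 fell by 1.25, Icam1 by 1.00 and Cp by 0.76. Il6, Tnf, Ptgs2 and Il1rn were too low to be tested. Without VCR 1, 2 of the 15 passed and the median was -0.38.

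NSG mice lack B cells. Of 17 mouse B-lineage and leukocyte genes 10 were tested and none passed. The median was -0.62, and 3 (30%) had no overlap with Low-VCR lower, against 11.7% of all genes. Under scaling on Sertoli genes that count was 0. Cd79a, Cd79b, Ms4a1, Cd22, Dntt, Vpreb1 and Igll1 were too low to be tested, each at or below 0.984 CPM in all 8 libraries. Mme, the surface peptidase CD10, had the smallest p of those tested, at -0.65 (SE 0.23), adjusted p 0.0739. The summed level of the list was 43.51 to 67.27 CPM in VCR and 24.07 to 35.68 CPM in Low-VCR. Ptprc, the pan-leukocyte marker, measured 15.9, 3.95, 9.44 and 5.40 CPM in VCR and 8.005, 0, 5.18 and 0.436 CPM in Low-VCR, -1.37 (SE 0.97). Human leukaemic transcripts were not analysed here, so these values say nothing of the graft. Of 8 neutrophil markers 2 were tested, and S100a8, S100a9, Ngp, Ltf, Retnlg and Mpo were too low. Csf3r, the receptor for granulocyte colony-stimulating factor, was at -0.51 with an adjusted p of 0.162. Of the 4 erythroid genes tested none passed; Alas2, the erythroid enzyme of haem synthesis, had the smallest p, at -0.51, adjusted p 0.108, and the list had 392.7 to 567.7 CPM summed in VCR and 130.4 to 456.5 CPM in Low-VCR.

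Of 5 adipocyte genes tested none passed: Lpl, lipoprotein lipase, was at -1.59 (SE 0.42), adjusted p 0.0501, and Adipoq at 2.38 (SE 0.79), and the summed level of the list was 16.39 to 30.68 CPM in VCR and 17.25 to 32.15 CPM in Low-VCR. Of 8 epididymis markers 3 were tested, and Crisp1, Lcn5, Lcn8, Lcn9 and Adam7 were too low. The part of admixed tissue in the differences above was not tested.

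Among 23 targets of p53, 1 fell, against 2.54% of all genes tested, and the median was -0.55. No overlap with Low-VCR lower was seen for 5 (21.7%), against 11.7% of all genes. Under scaling on Sertoli genes it was seen for 1 (4.35%), against 2.6% of all genes. Ei24 fell from 65.7, 64.9, 40.1 and 46.9 CPM to 33.5, 32.6, 29.9 and 33.4 CPM, by 0.77 (SE 0.20). Cdkn1a, the p21 inhibitor of the cell cycle, was at -0.75 (SE 0.24) with no overlap, and Mdm2 at 0.24; neither passed. Of 15 NRF2 and antioxidant genes the median was -0.38, or 0.05 under scaling on Sertoli genes. No overlap was seen for 6 (40%) with Low-VCR lower and 2 (13.3%) with Low-VCR higher, against 11.7% and 13.5% of all genes. Under scaling on Sertoli genes it was seen for 2 (13.3%) each way, against 2.6% and 17.2% of all genes. Cat, catalase, fell by 0.85 (SE 0.22) from 62.7 to 107 CPM in VCR to 42.1 to 52.5 CPM in Low-VCR. Of 15 immediate early genes the median was -0.06, with signs on both sides under the alternatives, and Klf4 was the 1 that rose.

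Mitochondrial transcripts took 8.26% ± 2.60 (SD, n = 4) of counts in VCR and 6.07% ± 1.53 (SD, n = 4) in Low-VCR. The difference of -2.19 percentage points was within the spread (two-sided exact permutation p = 0.286; the smallest p that 4 against 4 allows is 0.0286). None of the 13 mitochondrially encoded genes passed, and mt-Nd4l had the smallest p at -0.43 (SE 0.28), which became 0.04 under scaling on Sertoli genes. Of 40 cytosolic ribosomal proteins 1 fell, a share near the 2.54% of all genes tested. No overlap with Low-VCR lower was seen for 7 (17.5%), against 11.7% of all genes. Under scaling on Sertoli genes that count was 0, against 2.6% of all genes. The list median was -0.30, or 0.12 under scaling on Sertoli genes. Rps3 fell from 402, 369, 268 and 302 CPM to 207, 250, 206 and 217 CPM, by 0.63 (SE 0.16).

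The largest rises were Etfbl, Btbd35f15, Tssk5, Lrriq4, Mroh9, Spam1, Pcdha1 and Tex51. Btbd35f15 belongs to a family of near-identical copies, so its counts are uncertain; it held 211 counts over the 4 Low-VCR libraries and 1 count over the 4 VCR libraries, a ratio of 204 after scaling (95% exact interval 36.2 to 8097, counting error only), with an adjusted p of 0.000833. Etfbl was listed at 0 in all 4 VCR libraries and held 96 counts in Low-VCR, at least 30.9-fold higher against a floor of 3 counts over the group. Lrriq4 rose from 0, 1.97, 0.984 and 0.761 CPM to 27.7, 8.59, 29.9 and 3.70 CPM, by 4.22 (SE 0.83). Mroh9 rose from 0.305, 2.35, 1.97 and 4.94 CPM to 71.1, 20.2, 62.1 and 5.81 CPM, by 4.04 (SE 0.94). Tex51 rose by 3.72 (SE 0.93). Pcdha1 rose by 3.86 (SE 0.75), but the genes of its cluster share exons, so reads of neighbours may be counted there. For all 8 the NC mean was above the Low-VCR mean, and in Lrriq4, Mroh9, Tex51 and Tssk5 Low-VCR 1 and 3 were again the higher pair.

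The largest falls were Slc43a1, Acot1, Phldb2, Stk32a, Ly6h, Fzd2, Clic5 and Cers1. Slc43a1, an amino acid transporter, measured 2.90, 1.97, 1.97 and 1.52 CPM in VCR, and was at 0.690 CPM in Low-VCR 1 and listed at 0 in the other Low-VCR libraries. Phldb2, a protein of cell cortex and adhesion sites, fell from 41.1, 24.2, 8.39 and 18.2 CPM to 6.69, 4.29, 4.72 and 5.30 CPM, by 2.15 (SE 0.40). Fzd2, a Wnt receptor, fell from 18.1, 11.8, 3.48 and 10.95 CPM to 2.69, 2.99, 3.15 and 3.05 CPM, by 1.92 (SE 0.42). Stk32a fell from 9.75, 12.8, 6.29 and 9.43 CPM to 3.52, 2.30, 1.77 and 1.45 CPM, by 2.09 (SE 0.39). Acot1, an acyl-CoA thioesterase with close copies in the genome, fell by 2.18 (SE 0.55). Cers1, Clic5 and Ly6h fell by 1.88, 1.88 and 1.97. VCR 3 was the lowest VCR library in Acot1, Phldb2, Fzd2, Stk32a, Cers1 and Ly6h.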

How the data were processed

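RNA of whole testis was sequenced with a directional poly(A) kit. The deposited table holds raw counts per mouse gene symbol (22066 symbols, 1207 without a count); per the submitters' processing notes the tools were STAR 2.7.10b, Trimmomatic 0.39, DESeq2 1.36.0 and, from Subread 2.0.3, featureCounts, on GRCm39, with roles, strand setting and treatment of human reads not given in the sources used here. Groups follow the labels, which do not say that libraries came from different mice, and p-values then reflect only the spread among these samples, which may be technical.

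The counts as the authors deposited them were tested with edgeR 4.0.16 (R 4.3.3): TMM, filterByExpr (minimum count 10), robust quasi-likelihood fit of the 12 vincristine-treated libraries (9 residual degrees of freedom), contrast Low-VCR minus VCR, Benjamini-Hochberg adjustment, calls under 0.05. The untreated libraries, far less variable, were left out, and a fit of all 20 was an alternative, as were DESeq2 1.42.0 and limma 3.58.1. CPM and list means (log2 CPM, prior count 1) were computed from the deposited counts. The script was tested on simulated data.

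Named were Tssk4 and Ccdc159, the 8 largest rises and 8 largest falls among called genes without overlap whose higher group averaged 1 CPM or more, and from each list the 2 called members with the smallest p, or 1 where none passed; unnamed gene models and Y-linked genes were not named. Other genes were chosen after their values were seen. The members and lists were chosen with earlier results of these data known. Between replicates of a group counts differed by more than sampling noise, so no library was counted as a copy. Etfbl aside, genes at 0 are given as listed.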

Additional observations from a re-analysis of the deposited data

Results flagged for a closer look

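In 8 of 180 groups of 4 libraries, 1 library lay apart from the other 3 by more of the range than Dixon's 95% critical value; chance gives about 1 in 20. Among single genes, VCR 2 was the only VCR library with a count of Btbd35f15 (1 of the range), VCR 3 was low for Cers1 (0.849) and Low-VCR 1 was the only Low-VCR library with counts of Slc43a1 (1). Among the list means, VCR 1 was low for round spermatid genes (0.862), testis-specific serine kinases (0.844) and tubulins (0.934). Low-VCR 3 was high for undifferentiated spermatogonia (0.875) and VCR 2 was high for adipocyte genes (0.884).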

How the results depend on the processing

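The counts of 513 genes higher and 411 lower rest on adjusted p-values just under the threshold. With DESeq2 size factors, library size alone, Sertoli scaling, no filter, at least 1 CPM in 4 libraries, the 8 libraries alone or limma voom they were 1 and 0, with Low-VCR libraries 3 and 4 alone 1 and 0, and with Low-VCR libraries 1 and 2 alone 2 and 2. They were 2757 and 2243 with all 20 libraries, 2091 and 1359 with DESeq2, and 1465 and 994 with limma voom with quality weights. Leaving out 1 library at a time gave 1 to 1769 higher and 0 to 2255 lower, and the higher share of the calls was 90.2% without VCR 1, 44% without VCR 3 and 71.6% without Low-VCR 4, against 55.5%. The cause of these moves was not tested. The replicate numbers do not pair the libraries (deviations of same-numbered libraries correlated at -0.156 to -0.0912); with a replicate block 0 genes were called in either direction by edgeR, 5385 had an unadjusted p under 0.05 and the smallest adjusted p was 0.0591.

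Of the 58 named genes all but mt-Nd4l kept their sign under every alternative that tested them, which was 22 for each but Etfbl, with 21; mt-Nd4l was at 0.045 under Sertoli scaling. Under that scaling list medians turned to 0.23 (undifferentiated spermatogonia), 0.064 (Sertoli cells), 0.090 (peritubular cells), 0.033 (barrier junctions), 0.049 (NRF2 genes), 0.33 (immediate early genes) and 0.12 (mitochondrial transcripts and ribosomal proteins, each). The Sertoli cell value rests on the same genes as the scaling, so it is no test of them. The undifferentiated spermatogonia were also at 0.030 with Low-VCR libraries 3 and 4 alone, and at -0.31 to 0.0060 with 1 library left out. The immediate early genes were also at 0.026 with DESeq2 size factors, 0.059 with the 8 libraries, 0.021 with DESeq2 and 0.16 with Low-VCR libraries 3 and 4 alone, and at -0.37 to 0.27 with 1 library left out. Genes without overlap and Low-VCR lower numbered 3013 with library size alone and 421 with Sertoli scaling; these counts, and those without VCR 1 (2224 higher and 2002 lower), were chosen after seeing the data. At 10645937 to 14029430 counts a library, genes under about 1 CPM, such as Igll1, rest on few counts, and a value of 0 is no evidence of absence.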

Other observations

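Relative to NC, all 4 Low-VCR libraries lay below all 4 NC libraries for 25 of 25 round spermatid genes, 22 of 26 elongating spermatid genes and 36 of 37 flagellum genes. They lay above all 4 NC libraries for 13 of 14 Leydig cell genes and 28 of 30 interferon-stimulated genes. The shares over all genes tested were not counted, so these counts describe the lists only. The exceptions were the nuclear packaging genes Prm1, Tnp1 and Tnp2 and the head protein gene Cylc1 among elongating spermatid genes, Dnah8 among flagellum genes, Fdx1 among Leydig cell genes, and Oas3 and Mx1 among interferon-stimulated genes. Each of these genes was chosen after its values were seen.

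Some members had large differences that did not pass. Cxadr, a junction receptor, was at -2.44 (adjusted p 0.0704 by edgeR), Itgam, an integrin of myeloid cells, at -2.01 (0.154), Myc at -1.82 (0.231) and Eda2r, a p53 target, at -1.26 (0.0559).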
